A study of Arabidopsis thaliana with 12 samples.

Results

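Among the genes whose means differed from wild type in both genotypes with GTE4 mutated, a small set lay near wild type in the eml1 eml2 double mutant. The set was chosen from the deposited values themselves. For each mutant, d was the log2 of the genotype mean plus 1 over the wild-type mean plus 1. A gene was a member when its mean over the 12 libraries was at least 50 normalized counts, when d in gte4 and d in the triple mutant had the same sign and were each at least 0.7 in size, and when d in eml1 eml2 lay between -0.2 and 0.2. GTE4, PBP1 and COW1 were left out by name, and of these only PBP1 met the numeric limits. The rule kept 20 of the 32548 genes in the table, 14 higher and 6 lower than wild type in both GTE4-deficient genotypes, which are gte4 and the triple mutant.

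The study sequenced total RNA of Arabidopsis thaliana seedlings aged 20 days, with 3 samples for each of 4 genotypes. The genotypes were gte4-/-, called gte4 here, then gte4-/- eml1-/- eml2-/-, called the triple mutant, then eml1-/- eml2-/-, called eml1 eml2, and wild type. Plants spent 12 days on Murashige and Skoog plates and then grew in soil to 20 days, under 16 h of light and 8 h of dark at 22 °C, with no treatment in any group. The labels give neither the mutant alleles nor whether the 3 samples of a genotype were separate plants, pools or harvests, so each p-value speaks of the spread among these samples alone, which may be technical. RNA came from seedlings, whose tissues are mixed, so more cells of a type and more RNA per cell cannot be told apart.

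GTE4 belongs to the bromodomain proteins, whose bromodomain binds acetylated lysines on histones and whose extra-terminal domain contacts partner proteins. EML1 and EML2 are EMSY-like proteins with a Tudor-like domain, a fold that in related proteins reads methylated histones. The title of the series places both kinds of protein in one complex, and the design sets the loss of either kind beside the loss of both.

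The mutated genes checked the labels in part. GTE4 had normalized counts of 64.7, 99.2 and 61.0 in gte4, 97.3, 93.9 and 78.6 in the triple mutant, 2197, 2134 and 2202 in eml1 eml2, and 1753, 1618 and 1737 in wild type. EML2 had 580.3, 597 and 521 in gte4, 32.1, 28.8 and 31.4 in the triple mutant, 117, 112 and 94.7 in eml1 eml2, and 612, 549 and 546 in wild type. Both genotypes labelled eml1-/- eml2-/- were low for EML2, and more residual transcript was counted in eml1 eml2 than in the triple mutant. EML1 had 967 ± 54.6 in gte4, 1004 ± 35.7 in the triple mutant, 942 ± 55.4 in eml1 eml2 and 928 ± 69.6 in wild type (SD, n = 3 each), so its mean was no lower in the genotypes labelled eml1-/- than in wild type, and the labels do not say which part of the gene is altered. The deposited totals ran from 31990484 to 34322625 normalized counts per library. All 12 leaf and photosynthesis markers were detected, as the seedling label has it. Of the 20 root-enriched genes listed, 12 had a mean of at least 1, and HAK5 and EXPA7 were under 1 in every library.

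The 3 differences d share the wild-type libraries, so the counts that follow describe the rule's steps and nothing is read from their agreement. A 12-library mean of at least 50 was reached by 16738 genes, and 512 of them passed 0.7 in size the same way in gte4 and the triple mutant, 262 higher and 250 lower. Without the genes left out by name there were 509. In eml1 eml2, 280 of these also passed 0.7 the same way, 206 lay between 0.2 and 0.7 the same way, 3 lay beyond 0.2 the opposite way, and 20 lay within the window. With gte4 and eml1 eml2 exchanged, the same rule gave 19 genes, 13 higher and 6 lower. Just inside the limit of 0.7 stood AT5G52930 (0.70) and AT2G38430 (0.70), and just outside stood RCI2B (0.69) and AT3G49410 (0.68), each by the smaller of its 2 sizes. At the eml1 eml2 limit, AT2G45220 (0.193 in size) and CHX17 (0.191) were just inside, and AT2G36970 (0.202) and AT5G08600 (0.209) just outside. At the limit on the mean, AT1G73810 (51.9) and AT2G38430 (53.3) were just inside, and AT2G41730 (42.2) and AT1G62975 (41.2) just outside.

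**Figure D1:**
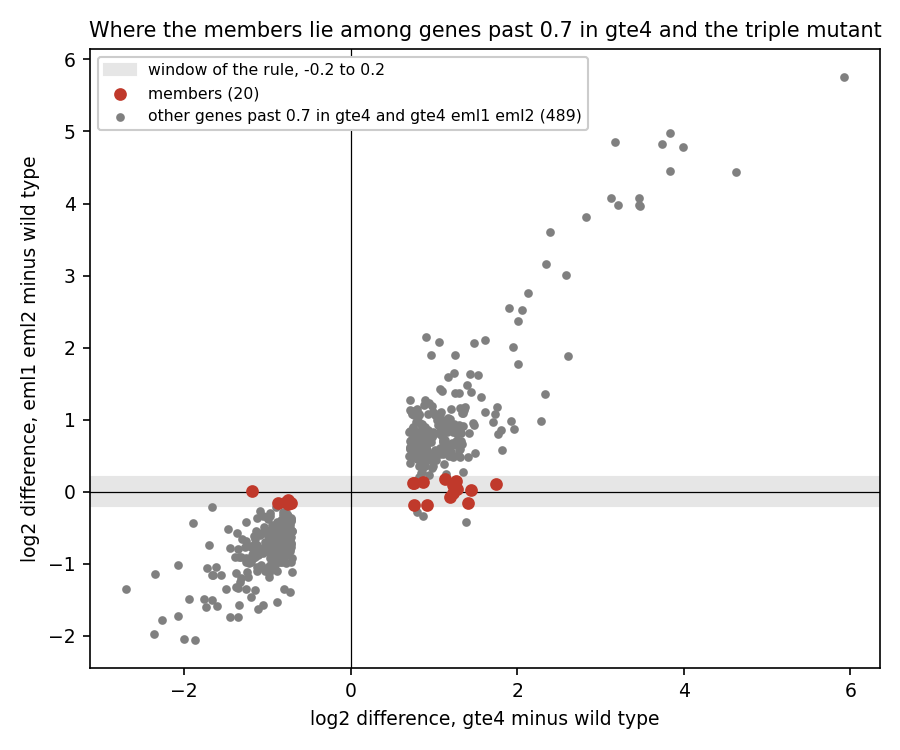
Difference d in eml1 eml2 (y axis, log2) against d in gte4 (x axis, log2) for the 509 genes past 0.7 the same way in gte4 and the triple mutant, with the rule's window from -0.2 to 0.2 shaded. The 20 members (red) lie in the window by construction, the other genes (grey) lie outside it, and both axes share the wild-type libraries.

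The higher members come first, beginning with 3 enzymes known to act on indole compounds, among them indole glucosinolates, which are sulfur-containing defence compounds. NIT2 (AT3G44300), a nitrilase that can turn indole-3-acetonitrile into the auxin indole-3-acetic acid, had normalized counts of 465, 276 and 137 in gte4, 380.4, 666 and 174 in the triple mutant, 84.0, 141 and 69.8 in eml1 eml2, and 69.0, 128 and 132 in wild type. Its levels in gte4 and the triple mutant varied over more than the whole wild-type range, and the lowest gte4 library lay just above the highest wild-type one and below the highest of eml1 eml2. The d values of NIT2 were 1.41 in gte4, 1.88 in the triple mutant and -0.15 in eml1 eml2. CYP71A12 (AT2G30750), a cytochrome P450 of indole metabolism, had 199, 124 and 129.7 in gte4, 190.1, 129.8 and 91.4 in the triple mutant, 69.6, 63.6 and 51.9 in eml1 eml2, and 73.4, 56.9 and 65.2 in wild type. All 6 GTE4-deficient libraries of CYP71A12 lay above all 6 others, with d of 1.20 in gte4, 1.06 in the triple mutant and -0.08 in eml1 eml2. PYK10 (AT3G09260), the beta-glucosidase stored in endoplasmic reticulum bodies, which can hydrolyse indole glucosinolates, had 3207, 2774 and 2915 in gte4, 2939, 2922 and 3117 in the triple mutant, 1928, 1787 and 1986 in eml1 eml2, and 2033, 1406 and 1787 in wild type. The lowest GTE4-deficient library of PYK10 was above the highest of the others, and d was 0.77 in gte4, 0.78 in the triple mutant and 0.13 in eml1 eml2.

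The next members are ordered by their annotation, and no shared theme was tested. EARLI1 (AT4G12480), a proline-rich protein with a lipid-transfer domain, had 267, 241 and 157 in gte4, 148, 142 and 151 in the triple mutant, 57.2, 84.7 and 69.2 in eml1 eml2, and 69.7, 73.5 and 53.2 in wild type. Every GTE4-deficient library of EARLI1 exceeded every other one, and the 3 gte4 libraries also lay above the 3 of the triple mutant. Its d was 1.74 in gte4, 1.16 in the triple mutant and 0.10 in eml1 eml2. LTP2 (AT2G38530), a lipid transfer protein of the epidermis and cuticle, had 940.2, 1016 and 706 in gte4, 749.5, 638 and 797 in the triple mutant, 435, 376 and 309 in eml1 eml2, and 368, 360.3 and 369.7 in wild type. Its wild-type libraries were almost level, and the GTE4-deficient ones were all far above them, with d of 1.28 in gte4, 0.99 in the triple mutant and 0.03 in eml1 eml2. AT2G45220 (PME17), a pectin methylesterase, had 232, 163 and 196 in gte4, 252, 306 and 129 in the triple mutant, 112, 107 and 84.9 in eml1 eml2, and 125, 84.8 and 139 in wild type. The third library of the triple mutant fell inside the wild-type range for AT2G45220, while the 3 gte4 libraries lay above it, and d was 0.76 in gte4, 0.97 in the triple mutant and -0.19 in eml1 eml2. AT1G65690, annotated as a late embryogenesis abundant hydroxyproline-rich glycoprotein and named here after its values were seen, had 129.6, 96.9 and 82.0 in gte4, 96.6, 83.3 and 42.2 in the triple mutant, 56.6, 57.1 and 24.8 in eml1 eml2, and 53.6, 36.6 and 40.0 in wild type. Again the third triple-mutant library lay within the wild-type range, and d was 1.22 in gte4, 0.76 in the triple mutant and 0.09 in eml1 eml2. AT1G73810, of a family of N-acetylglucosaminyltransferases, ranged from 51.8 to 83.5 in gte4, 56.5 to 69.0 in the triple mutant, 26.8 to 55.4 in eml1 eml2 and 30.8 to 44.7 in wild type. Its GTE4-deficient libraries lay above wild type, with 1 of gte4 inside the eml1 eml2 range, and d was 0.87 in gte4, 0.75 in the triple mutant and 0.13 in eml1 eml2.

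The remaining higher members have diverse annotations or none. SAG13 (AT2G29350), a short-chain dehydrogenase whose transcript marks senescence and cell death, had 345, 157 and 187 in gte4, 189, 225 and 61.4 in the triple mutant, 105, 95.0 and 55.6 in eml1 eml2, and 101, 69.4 and 81.2 in wild type. The third triple-mutant library lay below all 3 wild-type libraries for SAG13 although the genotype mean was higher, and d was 1.44 in gte4, 0.91 in the triple mutant and 0.02 in eml1 eml2. CHX17 (AT4G23700), a cation/proton exchanger, had 75.2, 78.4 and 69.5 in gte4, 93.5, 86.8 and 52.6 in the triple mutant, 49.99, 15.8 and 36.1 in eml1 eml2, and 59.7, 12.3 and 44.8 in wild type. Library 2 of eml1 eml2 and library 2 of wild type were far below the other libraries for CHX17, and the triple mutant overlapped wild type. Its d was 0.92 in gte4, 0.98 in the triple mutant and -0.19 in eml1 eml2. AT5G38900, a thioredoxin superfamily protein, had 92.3, 95.3 and 75.7 in gte4, 105, 84.7 and 53.7 in the triple mutant, 42.8, 38.0 and 28.8 in eml1 eml2, and 49.3, 27.9 and 33.8 in wild type. The 6 GTE4-deficient libraries of AT5G38900 lay above the 6 others, with d of 1.23 in gte4, 1.11 in the triple mutant and -0.02 in eml1 eml2. AT5G39520, a protein with a DUF1997 domain, had 122, 93.2 and 56.1 in gte4, 116, 109.6 and 64.2 in the triple mutant, 48.2, 60.0 and 29.0 in eml1 eml2, and 40.3, 21.0 and 60.6 in wild type. Here gte4 overlapped wild type in 1 library, and d was 1.13 in gte4, 1.23 in the triple mutant and 0.17 in eml1 eml2. AT2G34655, uncharacterized, had 762, 781 and 592 in gte4, 554, 471 and 570.2 in the triple mutant, 291, 321 and 366 in eml1 eml2, and 293, 346 and 247 in wild type. No library overlapped between the GTE4-deficient genotypes and the others, the 3 gte4 values were also above the 3 of the triple mutant, and d was 1.27 in gte4, 0.85 in the triple mutant and 0.14 in eml1 eml2. AT5G52930, with a DUF295 domain, ranged from 66.8 to 168 in gte4, 105 to 142 in the triple mutant, 61.9 to 96.1 in eml1 eml2 and 61.2 to 89.0 in wild type, so gte4 overlapped wild type. Its d was 0.75 in gte4, 0.70 in the triple mutant and 0.12 in eml1 eml2.

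The 6 lower members have unlike annotations. PORA (AT5G54190), a light-dependent protochlorophyllide oxidoreductase best known from dark-grown seedlings, had 579, 532 and 459 in gte4, 331, 378 and 389 in the triple mutant, 839, 698 and 889.5 in eml1 eml2, and 856, 989 and 844 in wild type. Its levels fell into ranges that did not overlap, with the triple mutant lowest, gte4 next, and eml1 eml2 and wild type together at the top. The d of PORA was -0.77 in gte4, -1.29 in the triple mutant and -0.15 in eml1 eml2. XIJ (AT3G58160), a class XI myosin, had 94.6, 92.2 and 96.2 in gte4, 133, 114 and 106 in the triple mutant, 234, 191 and 226 in eml1 eml2, and 272, 169.8 and 203 in wild type. For XIJ the order was the other way round, with gte4 below the triple mutant and both below the rest, and d was -1.18 in gte4, -0.87 in the triple mutant and 0.01 in eml1 eml2. LACS7 (AT5G27600), a peroxisomal acyl-CoA synthetase that activates fatty acids for beta-oxidation, had 302, 264 and 290.3 in gte4, 211, 252 and 299 in the triple mutant, 457, 383 and 426 in eml1 eml2, and 530.2, 443 and 437 in wild type. All GTE4-deficient libraries of LACS7 were below all others, and d was -0.72 in gte4, -0.89 in the triple mutant and -0.16 in eml1 eml2. AT5G10800, a protein with an RNA recognition motif, had 75.4, 95.2 and 83.3 in gte4, 93.0, 99.5 and 83.8 in the triple mutant, 145, 121 and 153 in eml1 eml2, and 172, 136 and 159 in wild type. AT2G16870, of the TIR-NBS-LRR class of intracellular immune receptors, had 95.5, 72.2 and 88.9 in gte4, 88.4, 100.4 and 73.4 in the triple mutant, 156, 121 and 108 in eml1 eml2, and 168, 121 and 145 in wild type. Neither AT5G10800 nor AT2G16870 overlapped between the GTE4-deficient genotypes and the others, with d of -0.87 and -0.75 in gte4. AT2G38430, uncharacterized, had 59.6, 27.9 and 32.7 in gte4, 35.9, 56.5 and 32.6 in the triple mutant, 71.7, 57.8 and 59.4 in eml1 eml2, and 82.0, 59.8 and 63.2 in wild type. Its gte4 library number 1 stood within the eml1 eml2 range and just below wild type, and d was -0.76 in gte4, -0.70 in the triple mutant and -0.12 in eml1 eml2.

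**Figure D2:**
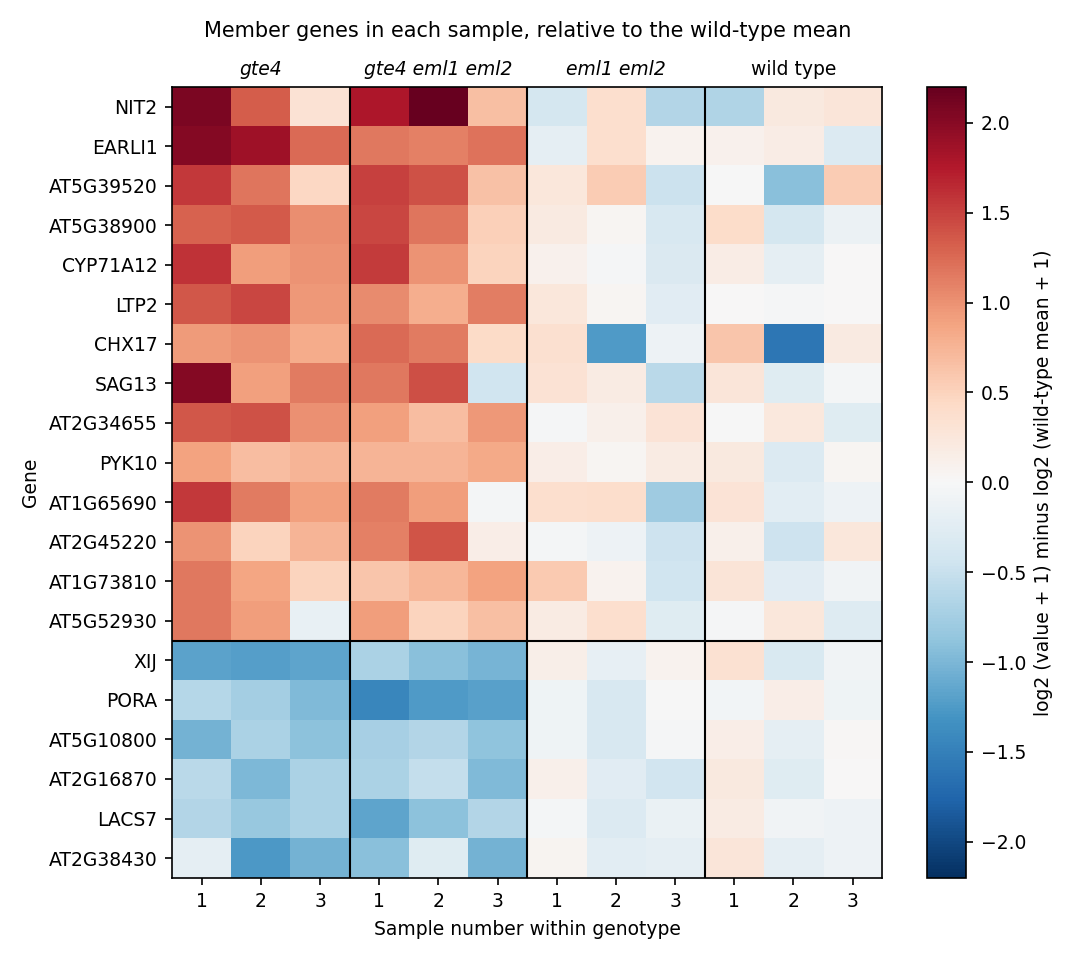
Value of each of the 20 members (rows) in each of the 12 libraries (columns, 3 per genotype), as log2 of the value plus 1 minus log2 of the wild-type mean plus 1, with red above and blue below the wild-type mean. The 14 higher members are red on average in gte4 and the triple mutant and mixed in eml1 eml2 and wild type, and the third library of gte4 is the palest of its genotype for 10 of them, while that of the triple mutant is lowest for 8 and highest for 5.

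These contrasts with wild type chose the members, so the following counts describe them and nothing is read from them. The threshold for a call was an adjusted p of 0.05 (limma, Benjamini-Hochberg over the 22315 genes whose mean was at least 1). In gte4 against wild type 14 members were called (8 higher, 6 lower), beside 25.9% of all genes tested. The triple mutant against wild type had 15 called (9 higher, 6 lower), beside 33.6%. NIT2, CHX17, SAG13 and AT5G52930 were called in neither, with limma adjusted p in gte4 of 0.162, 0.166, 0.0830 and 0.126. In the triple mutant theirs were 0.0575, 0.137, 0.319 and 0.0858. AT5G39520 and AT2G45220 were called only in the triple mutant, and AT1G65690 only in gte4. This fit held no term for the sample number. With such a term (a replicate block), limma also called SAG13 (adjusted p = 0.0257) and AT5G52930 (adjusted p = 0.0202) in gte4. NIT2 (adjusted p = 0.0396), AT5G52930 (adjusted p = 0.0106) and AT1G65690 (adjusted p = 0.0163) were then also called in the triple mutant. No member was called in eml1 eml2 against wild type by limma, where 23.6% of all genes were, and 0 had an unadjusted p under 0.05. There, no member had libraries that did not overlap, beside 38.9% of all genes. Leaving out wild-type library 1 called PYK10 in that contrast (adjusted p = 0.0489). The 3 libraries of gte4 did not overlap those of wild type for 18 members, beside 39.2% of all genes, and those of the triple mutant did not for 16, beside 45.6%. Against eml1 eml2, which the rule did not compare directly but bounds through wild type, gte4 did not overlap for 15 members (33.5% of all genes) and the triple mutant for 18 (19.9%).

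Libraries of one genotype differed in the higher members. In gte4, library 1 held the highest value for 10 of the 14 and library 3 the lowest for 10. Library 3 of the triple mutant was lowest for 8 and highest for 5, where library 1 was highest for 6 and library 2 for 3. Library 3 of eml1 eml2 was lowest for 10 and highest for 2. The median of the 14, relative to the wild-type mean, was 1.36, 1.06 and 0.86 on the log2 scale in gte4 libraries 1 to 3, and 1.15, 1.05 and 0.65 in those of the triple mutant. It was 0.19, 0.10 and -0.34 in eml1 eml2 and 0.14, -0.24 and -0.02 in wild type. The order of the genotypes in these medians follows from the rule, and only the spread within a genotype is described by them. That spread was partly shared between genotypes. Over genes with a mean of at least 50, same-number deviations from the genotype means correlated at 0.376 to 0.533 for number 1 and 0.462 to 0.624 for number 3. For number 2 the correlations were -0.124 to 0.262. The source of the shared part was not tested. The 6 lower members had medians from -0.93 to -0.63 in gte4, -0.99 to -0.77 in the triple mutant, -0.27 to 0.01 in eml1 eml2 and -0.19 to 0.20 in wild type.

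The triple mutant was set against gte4, with GTE4 mutated on both sides. Of the genes named in its further genotype, EML2 was reduced and EML1 was not. The rule did not use this difference itself but chose the members on the means of both genotypes, so its p-values are conditioned on that choice and are given as a description. By limma, 1 of 20 members was called, beside 9.55% of all genes tested, and 3 had an unadjusted p under 0.05. The libraries did not overlap for 4 members, EARLI1, AT2G34655, XIJ and PORA, beside 29.8% of all genes. The called member was PORA, which was lower in the triple mutant, at 366 ± 30.8 against 523 ± 60.4 normalized counts in gte4 (SD, n = 3 each). Its log2 difference was -0.51 (SE 0.106, limma adjusted p = 0.0103), with all 3 triple-mutant libraries below all 3 gte4 libraries. That call was lost without gte4 library 1 (adjusted p = 0.0599) and without gte4 library 2 (adjusted p = 0.0621), and over all alternatives the adjusted p ran from 0.00301 to 0.0756.

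No other member was called in the triple mutant against gte4. AT2G34655 was nearest, with a log2 difference of -0.41 (SE 0.136, adjusted p = 0.0696, from 0.0161 to 0.251 over the alternatives), at 532 ± 53.4 in the triple mutant against 711 ± 104 in gte4 (SD, n = 3 each). EARLI1 followed with -0.55 (SE 0.195, adjusted p = 0.0832, from 0.0118 to 0.306), at 147 ± 4.28 against 222 ± 57.7. Without gte4 library 3, AT2G34655, EARLI1 and LTP2 joined PORA, 4 members in all. The absolute log2 difference ran from 0.02 for PYK10 to 0.65 for SAG13 with standard errors from 0.106 to 0.605, so for the more variable members a sizeable difference could be missed. Across the 20, 10 differences were positive and 10 negative, the median absolute difference was 0.16, and over all genes tested it was also 0.16.

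**Figure D3:**
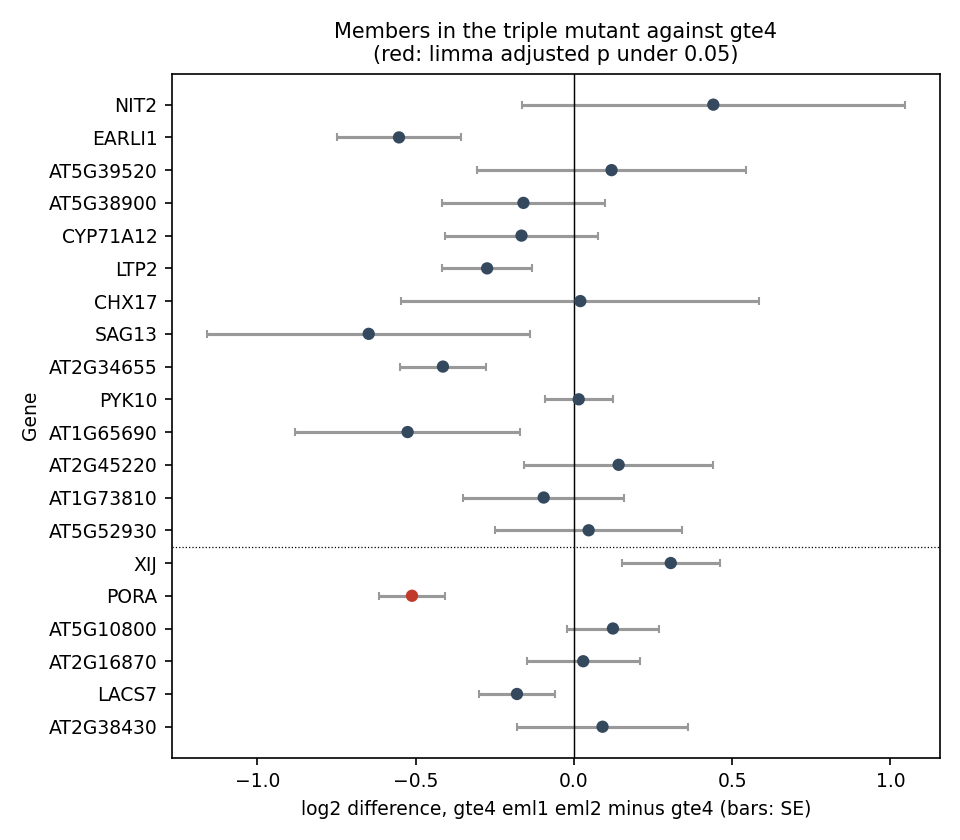
Log2 difference of the triple mutant minus gte4 (x axis, bars are the standard error from limma, 3 libraries each) for the 14 higher members (above the dotted line) and the 6 lower ones. PORA, in red, is the only member with an adjusted p under 0.05, at -0.51, and the largest difference, in SAG13 at -0.65, has a far wider error.

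Closest relatives, matched by coding sequence and added after the values were seen, are described beside their members. A relative with coding sequence aligned over at least 50% was found for 15 members, and 14 of these relatives had a mean of at least 1. In gte4 against wild type 4 of the 14 were called, beside 25.9% of all genes, each in the direction of its member. In the triple mutant against wild type 1 was called, beside 33.6%. The share called in gte4 was close to that of all genes, and nothing is read from it. Identity ran from 66.9% for CHX18 to 91.2% for NIT1, so not all relatives are close copies. CHX18, BGLU21, XIE and RLM1 averaged at most 6.68 in any genotype, so a change in them could be missed. NIT1, the neighbouring nitrilase with 91.2% identity to NIT2, averaged 34999 ± 3852 in gte4, 29009 ± 2357 in the triple mutant, 27983 ± 1481 in eml1 eml2 and 24856 ± 2201 in wild type (SD, n = 3 each). NIT1 rose by 0.49 on the log2 scale in gte4 (SE 0.086, limma adjusted p = 0.00116). That difference was smaller than the d of NIT2, but the 2 were not compared by a test. NIT2 itself was not called by limma in gte4 (SE 0.605, adjusted p = 0.162) or in the triple mutant (adjusted p = 0.0575). With a replicate block NIT2 was called in the triple mutant (adjusted p = 0.0396). Of the pair, only NIT1 was called in gte4, so which of them changed more is not read from these values. LTP1, next to LTP2 on the chromosome, rose by 0.39 in gte4 (adjusted p = 0.0178) and was at 0.09 in the triple mutant (adjusted p = 0.551). AT5G39530, next to AT5G39520, rose by 0.19 in gte4 (adjusted p = 0.0123). LACS6, the other peroxisomal acyl-CoA synthetase of this type, was lower by limma in all 3 mutants, with log2 differences of -0.14 in gte4 (adjusted p = 0.0441), -0.16 in the triple mutant (adjusted p = 0.0153) and -0.16 in eml1 eml2 (adjusted p = 0.0240). The count in gte4 was 1 without gte4 library 1 and 2 without gte4 library 2 or wild-type library 1, and the count in the triple mutant was 0 without its library 1 or 3.

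Some relatives stood apart from their members. PORB, the protochlorophyllide oxidoreductase of green tissue with 82.5% identity to PORA, averaged 56942 ± 1006 in gte4, 55005 ± 2514 in the triple mutant, 58004 ± 1664 in eml1 eml2 and 52416 ± 2009 in wild type (SD, n = 3 each). Its log2 difference was 0.12 in gte4 (adjusted p = 0.0747), 0.07 in the triple mutant (adjusted p = 0.285) and 0.15 in eml1 eml2, where it was called (adjusted p = 0.0341), so no mutant mean of PORB was below that of wild type. RRC1, a splicing-factor relative of AT5G10800 with a role in phytochrome signalling, had 1747 ± 59.4 in gte4, 1854 ± 73.8 in the triple mutant, 1918 ± 109 in eml1 eml2 and 1803 ± 60.5 in wild type and was not called by limma in any mutant. CYP71A13, a camalexin enzyme 90.4% identical to CYP71A12, averaged 84.3 ± 33.0 in gte4, 28.0 ± 16.9 in the triple mutant, 39.6 ± 36.7 in eml1 eml2 and 24.9 ± 19.3 in wild type (SD, n = 3 each), with a log2 difference of 1.89 in gte4 that did not pass the test (adjusted p = 0.107). How the authors treated reads that fit more than one copy is not given in the sources used here, so values of NIT2, CYP71A12, EARLI1 and their close copies are uncertain to that extent.

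Of 3 genes similar to EARLI1 in coding sequence, AZI1 was called in both GTE4-deficient genotypes, AT4G12490 in gte4 and AT4G12500 in no mutant. AZI1, its neighbour with 84.3% identity, which acts in the priming of systemic immunity, averaged 209.5 ± 20.2 in gte4, 177 ± 53.4 in the triple mutant, 126 ± 30.4 in eml1 eml2 and 83.7 ± 13.8 in wild type (SD, n = 3 each). In limma AZI1 rose by 1.32 in gte4 (adjusted p = 0.000633), and the rise in the triple mutant was 1.04 (adjusted p = 0.00215), and it stood at 0.57 in eml1 eml2 without passing the test (adjusted p = 0.0735). AT4G12490, with 81.2% identity, rose by 1.40 in gte4 (adjusted p = 0.0376) and stood at 0.68 in the triple mutant (adjusted p = 0.265). AT4G12500, with 83.5% identity, had 43.9 ± 19.9 in gte4, 26.9 ± 15.3 in the triple mutant, 20.1 ± 3.38 in eml1 eml2 and 28.9 ± 4.40 in wild type and was not called.

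**Figure D4:**
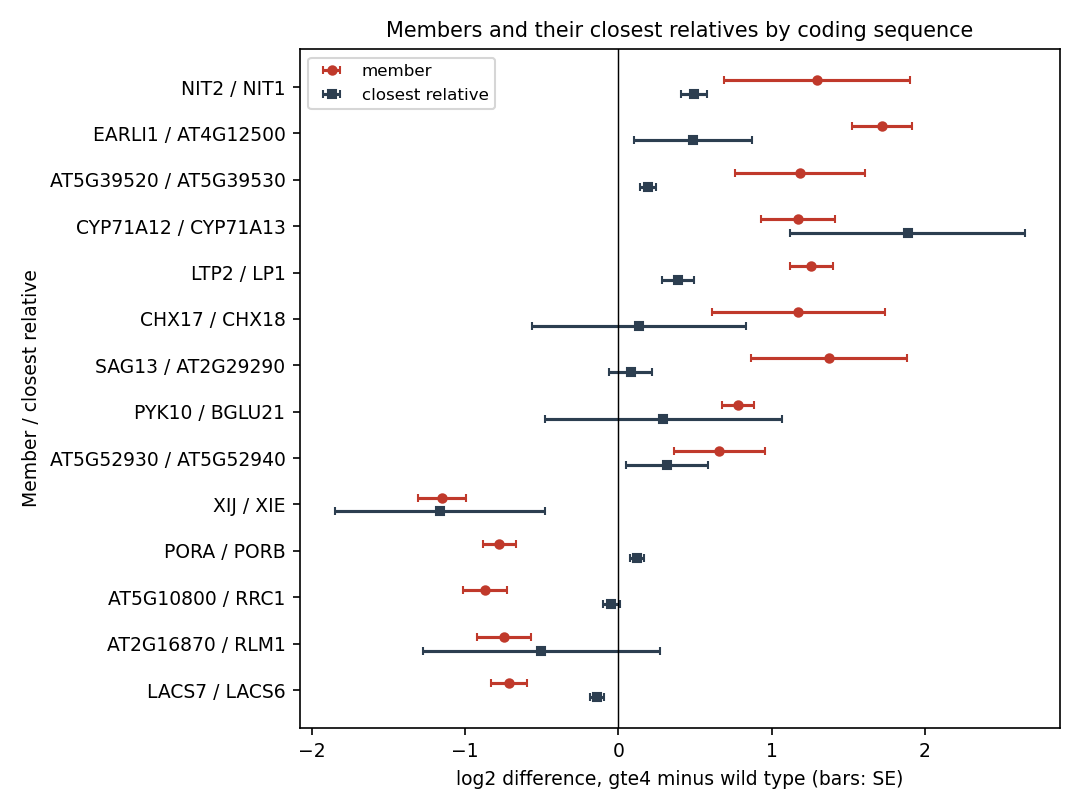
Log2 difference of gte4 minus wild type, with limma's standard error (3 libraries each), for each member (red circles) and its closest tested relative (dark squares). NIT1, AT5G39530, LP1 (the RefSeq symbol of LTP1) and LACS6 lie on the side of their members nearer to 0, and PORB lies slightly above 0 while PORA lies at -0.78. The members NIT2 and AT5G39520 were not themselves called in gte4.

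Genes next to a member in gene order were looked at in the same way. Of 29 tested neighbours, which include NIT1, AZI1, AT5G39530 and LTP1, 14 were called in gte4 against wild type, 10 in the direction of the member and 4 against it, beside 25.9% of all genes. Of the same neighbours, 11 were called in the triple mutant, 6 with the member and 5 against it, beside 33.6%. The count in gte4 was 7 without gte4 library 1 or 2, and 9 without wild-type library 1 or 3. SARD1, a regulator of salicylic acid synthesis next to AT1G73810, rose by 0.43 in gte4 (adjusted p = 0.0249) and stood at -0.08 in the triple mutant (adjusted p = 0.665). AT3G58150, next to XIJ, rose by 1.08 in gte4 (adjusted p = 0.00847), against the direction of XIJ. The members themselves were scattered: no pair lay within 5 genes of each other, the closest being AT2G38430 and LTP2 at 12 genes apart, and none lay within 100 genes of GTE4.

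Gene structure was not part of the rule and is described without a test. All 20 members are protein coding. The 14 higher members had a median exon length of 1431 bases and 3 exons, and the 6 lower ones 3002 bases and 12.5 exons, beside 1849 bases and 5 exons for all genes with a mean of at least 50. Chromosome 2 held 7 of the 20 and chromosome 5 held 6, beside 15.1% and 23.3% of those genes. Exon bases shared with another annotated gene made up to 10.5% of a member's length, in AT5G10800, and 10.3% in AT5G39520, and since the strand of the libraries is not given in the sources used here, such reads could not be assigned.

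The 250 bases before each annotated gene start were searched on both strands for motifs listed with the rule. The evening element AAAATATCT, which clock proteins of the CCA1 family bind, was in 4 of 20 members (20%), beside 2.61% of genes with a mean of at least 50. In windows of 500 bases it was in the same number, 4, beside 4.65%. The W-box, TTGACC or TTGACT, was in 6 (30%, beside 27.5%), the ABRE core ACGTG in 5 (25%, beside 23.0%) and its extension, the G-box CACGTG, in 1 (5%, beside 7.43%). The general MYC form CANNTG, which also covers the G-box, was in 8 (40%, beside 55.9%). The 4 windows with an evening element are shown because this was the motif whose share differed most from that of all genes, a comparison without a test. They come from the RefSeq annotation of TAIR10.1, on the minus strand of the genome and read 5′ to 3′ toward the gene, with the element or its reverse complement AGATATTTT in capitals. The EARLI1 window is chr4:7406995-7407244, that of AT1G65690 chr1:24433166-24433415, that of PORA chr5:21992815-21993064 and that of AT5G10800 chr5:3418554-3418803.
EARLI1: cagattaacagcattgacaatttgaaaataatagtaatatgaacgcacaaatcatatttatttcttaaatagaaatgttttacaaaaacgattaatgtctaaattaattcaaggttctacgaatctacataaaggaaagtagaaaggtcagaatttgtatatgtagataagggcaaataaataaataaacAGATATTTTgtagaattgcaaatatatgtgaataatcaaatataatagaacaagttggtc
AT1G65690: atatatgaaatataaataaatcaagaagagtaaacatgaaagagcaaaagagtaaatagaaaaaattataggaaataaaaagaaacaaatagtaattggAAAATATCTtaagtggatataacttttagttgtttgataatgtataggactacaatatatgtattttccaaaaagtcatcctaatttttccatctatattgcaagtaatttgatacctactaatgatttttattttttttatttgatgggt
PORA: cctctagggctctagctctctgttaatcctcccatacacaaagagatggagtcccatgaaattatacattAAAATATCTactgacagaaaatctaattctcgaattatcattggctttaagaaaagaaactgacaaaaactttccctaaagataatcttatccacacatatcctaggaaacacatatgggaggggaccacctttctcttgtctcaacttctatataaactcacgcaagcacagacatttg
AT5G10800: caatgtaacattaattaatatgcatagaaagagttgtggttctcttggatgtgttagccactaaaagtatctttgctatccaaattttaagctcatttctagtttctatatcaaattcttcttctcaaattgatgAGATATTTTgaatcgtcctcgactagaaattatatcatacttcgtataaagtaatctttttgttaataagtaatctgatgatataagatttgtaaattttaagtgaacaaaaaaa
The element begins 60 bases before the gene start in EARLI1, 151 in AT1G65690, 180 in PORA and 115 in AT5G10800, and it reads forward in AT1G65690 and PORA and reversed in EARLI1 and AT5G10800. EARLI1 and AT1G65690 are higher members and PORA and AT5G10800 lower ones. A match in letters is a description and does not show that a factor binds there.

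Listed clock genes were called in every mutant. For this list and those that follow, the shares called over all genes tested were 25.9% in gte4, 33.6% in the triple mutant and 23.6% in eml1 eml2. Of 15 listed, 3 were higher and 6 lower in gte4, 8 higher and 6 lower in the triple mutant, and 4 higher and 5 lower in eml1 eml2, with median log2 differences of 0.04, 0.18 and 0.12, where the medians of all genes tested were -0.0046, 0.00097 and 0.0059. CCA1, a morning clock factor, averaged 137 ± 24.8 in gte4, 195 ± 38.1 in the triple mutant, 116 ± 20.7 in eml1 eml2 and 33.5 ± 4.34 in wild type (SD, n = 3 each). It rose by 2.0 in gte4 (limma adjusted p = 2.13e-06), 2.49 in the triple mutant (adjusted p = 8.53e-08) and 1.76 in eml1 eml2 (adjusted p = 1.03e-05). LHY, its close partner, rose by 1.58 in gte4 (adjusted p = 0.00175) and 1.63 in the triple mutant (adjusted p = 0.000812) and stood at 0.69 in eml1 eml2 (adjusted p = 0.13). The time of harvest is not given in the labels, and the part of the clock genes in the members' levels was not tested.

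PYK10 and LTP2 were the only members on the pathway lists. Of 22 genes of the PYK10 complex and endoplasmic reticulum body, PYK10 among them, 14 rose and none fell in gte4, 14 rose in the triple mutant and 7 rose in eml1 eml2, with median log2 differences of 0.61, 0.64 and 0.30. NAI1, the transcription factor that drives endoplasmic reticulum body formation, averaged 119.6 ± 13.8 in gte4, 104 ± 28.9 in the triple mutant, 74.4 ± 13.8 in eml1 eml2 and 52.3 ± 17.4 in wild type (SD, n = 3 each), and rose in gte4 (1.22, adjusted p = 0.00146) and the triple mutant (1.0, adjusted p = 0.00405). In eml1 eml2 it stood at 0.54 (adjusted p = 0.116). NSP1, a nitrile-specifier protein that steers glucosinolate breakdown, rose by 0.64 in gte4 (adjusted p = 2.02e-06) and 0.63 in the triple mutant (adjusted p = 1.06e-06), short of the 0.7 that the rule asks for, and stood at 0.16 in eml1 eml2 (adjusted p = 0.0574). NAI2, MEB1, TSA1 and JAL34, other proteins of these bodies or of the complex, rose in all 3 mutants, JAL34 by 1.29 in gte4, 1.34 in the triple mutant and 0.82 in eml1 eml2. The list therefore held both genes near wild type in eml1 eml2 and genes that were not.

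Of 11 wax and lipid transfer genes, LTP2 among them, 9 rose in gte4, 8 in the triple mutant and 6 in eml1 eml2, and none fell, with median log2 differences of 0.43, 0.57 and 0.36. LTP3, a relative of LTP2, averaged 224 ± 121 in gte4, 168 ± 4.38 in the triple mutant, 308 ± 138 in eml1 eml2 and 53.0 ± 5.20 in wild type (SD, n = 3 each) and rose in all 3 mutants, by 1.86 in gte4 (adjusted p = 0.0205), 1.65 in the triple mutant (adjusted p = 0.0262) and 2.43 in eml1 eml2 (adjusted p = 0.00666), where LTP2 had a d of 0.03. Of 7 indole glucosinolate and camalexin genes, 3 rose in gte4 and none was called in the triple mutant or in eml1 eml2, with medians of 0.14, -0.04 and -0.04. They were PAD3, the last enzyme of camalexin synthesis (1.40, adjusted p = 0.0487), CYP79B2 (0.40, adjusted p = 0.0239) and SUR1 (0.21, adjusted p = 0.0302). Among the 22 listed genes of salicylic acid and immunity, gte4 had 9 higher and 1 lower, the triple mutant 3 higher and 2 lower, and eml1 eml2 1 higher and 2 lower, with medians of 0.65, 0.19 and 0.09.

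Marker lists of other tissues were set beside the members, since PYK10 is strongly expressed in roots. Of 12 tested root-enriched genes, PYK10 among them, 3 rose and 1 fell in gte4, 3 rose in the triple mutant, and 2 rose and 1 fell in eml1 eml2. Their summed level without PYK10 was 1898 to 2130 in gte4, 1993 to 2026 in the triple mutant, 2044 to 2213 in eml1 eml2 and 1820 to 2035 in wild type. In wild type SCR, PHO1 and SHR averaged 919, 535 and 391, while IRT1, WOX5, CASP1, CASP2 and CASP4 averaged at most 11.7. The sum therefore follows the high genes and cannot show a change in the low ones, and nothing about root content is read from it. Of 16 root hair genes listed, 6 were tested, of which 2 fell in gte4, 1 fell in the triple mutant and 1 rose in eml1 eml2, with RSL4, RHD6, EXPA7 and PRP1 under 1 in every library. Of 10 inflorescence genes, 5 rose in gte4, 5 in the triple mutant and 8 in eml1 eml2, with sums of 956 to 1010, 991 to 1278, and 1132 to 1560 against 503 to 717 in wild type. Of 8 tapetum and pollen genes, 4, 6 and 6 rose in the same order, with sums of 604 to 832, 544 to 867, and 1091 to 1702 against 206 to 351 in wild type. Both floral sums reached their highest values in eml1 eml2. Not every gene in them did, and A9 and MS2, for example, averaged higher in the triple mutant. The part of these tissues in the members' levels was not tested.

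Membership itself moved with single libraries. With each of the 12 libraries left out in turn, the rule kept 8 to 18 of the 20, and CYP71A12 and LTP2 were kept each time. A further 9 were kept in 9 to 11 of the 12 repeats, and the other 9 in fewer, with AT2G38430 and AT5G52930 kept in 5. Without wild-type library 1 the rule gave 13 genes, of which 8 were members. In all, 42 other genes entered in at least 1 of the repeats.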

How the data were processed

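Total RNA of 12 seedling samples was sequenced, 3 for each of 4 genotypes. The deposited table holds a normalized signal value for each of 32548 genes in each sample, which behaves like a read count scaled by the authors to nearly equal library totals and is not whole. Per the submitters' processing notes, the authors used bcl2fastq, HISAT2 and edgeR with TAIR10, and gave no versions. The counting program, annotation and strand are not given in the sources used here. Because the values are not counts, the test planned beside the count test was used.

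Values plus 1 were log2 transformed. A linear model with a term for each genotype was fitted to the 12 libraries together in limma 3.58.1 (R 4.3.3), with trend and robust both switched on, for the 22315 genes with a mean of at least 1. The p-values were adjusted by Benjamini-Hochberg over these genes within each of 4 comparisons. Fold changes understate differences of low genes. With 3 samples against 3, a permutation test cannot go below 0.1. The fit was tested on simulated data with known changes.

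The members and the gene lists were chosen with earlier results of these data known, so nothing chosen that way is independent support. Text names the 10 members with the largest smaller d in each direction, members called in the triple mutant against gte4, members on a list, members near one another or near GTE4, genes at each limit of the rule, and the mutated genes. Lists named in the text cover the endoplasmic reticulum body, wax and lipid transfer, indole glucosinolates and camalexin, salicylic acid and immunity, the clock, and leaf, root, root hair, inflorescence and tapetum markers.

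All 32548 gene IDs were found in the RefSeq annotation of TAIR10.1, which gave names, gene order, structures and promoter windows. The deposited table holds no coordinates. Relatives are the best BLAST 2.17.0 match between coding sequences.

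Sample numbers pair genotypes if all same-number deviations from the genotype means, over genes with a mean of at least 50, correlate above 0.1. They did for gte4 and wild type (0.262 to 0.506) and for eml1 eml2 and wild type (0.121 to 0.576), and the labels do not say what a number stands for. Alternatives covered the pseudocount, scaling, filters, moderation, a replicate block, the samples fitted, the limits of the rule and each library left out.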

Additional observations from a re-analysis of the deposited data

How the results depend on the processing

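The number of members followed the limits of the rule. It was 166 with no minimum mean, 5 with a size of at least 1, 6 with a window of 0.1, and 13 to 25 with 1 library left out. The list also changed with the limits kept. Genotype medians in place of means gave 17 genes, of which 10 were among the 20 members. In the triple mutant against gte4, the members called were 0 with no filter on low values, 0 without trend and robust moderation, 2 with only the genotypes compared in the fit, and 0 to 4 with 1 library left out. There the sample numbers missed the limit for pairing through number 2 alone, with correlations of 0.499, -0.0745 and 0.462 for numbers 1 to 3. A limma fit with a replicate block called 2 members, adding EARLI1 (adjusted p = 0.0376). For the triple mutant and wild type number 2 alone missed it as well (0.376, -0.124 and 0.534). Here the block called 18 members in place of 15, adding NIT2 (adjusted p = 0.0396), AT5G52930 (adjusted p = 0.0106) and AT1G65690 (adjusted p = 0.0163). With the block, SAG13 (adjusted p = 0.0257) and AT5G52930 (adjusted p = 0.0202) were also called in gte4 against wild type, where the numbers pair the samples. With 1 library left out, 11 to 16 members were called in gte4, 11 to 16 in the triple mutant and 0 to 1 in eml1 eml2, each against wild type. The relatives and neighbours were repeated under alternatives chosen after seeing the data. Relatives called in gte4 numbered 1 to 4 with 1 library left out. In the triple mutant they numbered 2 with median-of-ratios scaling, 2 with equal totals, 3 with the replicate block, 2 with only the compared genotypes, and 0 to 2 with 1 library left out. Neighbours called in gte4 numbered 8 with no filter, 9 with only the compared genotypes and 7 to 14 with 1 library left out. The cause of these shifts was not tested. Over 20 alternatives of the fit and 20 members, no called difference changed sign. PORA, the only member called in the triple mutant against gte4, kept its call under 16 of the 20 alternatives and lost it under 4. Other members gained 7 calls in that comparison, some of them under the same alternative. The precision of members with means near 50 is limited by their spread, and single reads could not be recovered from the deposited values.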
